A study of Mus musculus with 3 samples.

Results

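Cbs, Ass1, Slc25a35, Susd4, Otor, Car14, Cnmd and Socs2 are 8 of the 53465 genes in the tables, and they were chosen by their measured values: each was higher in granulosa cells of the mouse ovary at postnatal day 14 than earlier. The granulosa values by age, and the coexpression with Inhba, are therefore descriptions and were not tested. Levels in the other cell classes were not used in the choice, but a comparison of them with day 14 granulosa cells rests on values that were, and is a description too. Whole ovaries of wild-type C57BL/6 female mice were dissociated with collagenase and profiled with 10x Genomics 3′ single-cell chemistry at embryonic day 16.5 and at days 7 and 14 after birth. The 3 groups share strain, sex and genotype, have no treatment in the labels, and consist of 1 library each. With 1 library per age there is no replicate check, no difference between ages was tested, and every interval printed covers counting error only. How many animals entered a library is not given in the sources used here, and the title of the embryonic library names a slightly later embryonic day than its age label.

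Granulosa cells surround the oocyte, divide as the follicle grows, and make the steroid and peptide signals of the growing follicle. Inhba encodes the βA subunit shared by activin A and inhibin A, and in the ovary it is known as a product of the granulosa cells of growing follicles. The 8 genes have no common pathway. Cbs (cystathionine β-synthase, first step of transsulfuration) and Ass1 (argininosuccinate synthase, which joins citrulline and aspartate on the route to arginine) are enzymes of amino acid metabolism. Slc25a35 belongs to the mitochondrial carrier family, and Car14 is a membrane-bound carbonic anhydrase. Susd4 is a membrane protein that regulates complement, Otor (otoraplin) is a small secreted protein known from the inner ear, and Cnmd (chondromodulin) is a glycoprotein of cartilage that inhibits vessel growth. Socs2 is an intracellular inhibitor of growth hormone and other cytokine receptors.

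After filtering, 456, 509 and 583 cells were kept in the libraries of embryonic day 16.5, day 7 and day 14 after birth. The kept cells held 8735023 to 9053047 UMIs (unique molecular identifiers, the counted transcript molecules) per library, and no barcode was shared between libraries. Cells were clustered and classes named from marker lists, so each class is called "-like". The granulosa-like class held 87, 88 and 95 cells at the 3 ages, with 1815465, 1960930 and 1651066 UMIs and a median depth of 16854, 17833 and 12623 UMIs per cell. Different clusters made up the class at each age: cluster 0 held all 87 embryonic cells, cluster 12 held 85 of the 88 cells at day 7, and cluster 19 held 77 of the 95 cells at day 14, the other 18 lying in cluster 12. The 20 granulosa markers summed to 4549, 7155 and 9886 CPM (UMIs per 1000000 UMIs of the class, the level used throughout) at the 3 ages, and none was at 0 after birth. At embryonic day 16.5, Esr2 and Fshr were at 0. Markers of endothelium were also found in granulosa-like cells at day 14, at 246 CPM against 27.5 at day 7 and 4950 in the endothelium-like cells themselves. Most of those UMIs, 351 of 406, lay in 9 granulosa-like cells with 10 or more of them.

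Annotated on GRCm38, all 8 are protein-coding. Cbs lies on chromosome 17 (31608894-31637238, minus strand), Ass1 on chromosome 2 (31470207-31520672, plus strand) and Susd4 on chromosome 1 (182763860-182896591, plus strand). Otor lies on chromosome 2 (143078473-143081713, plus strand), Socs2 on chromosome 10 (95385362-95417180, minus strand) and Cnmd on chromosome 14 (79637690-79662170, minus strand). Slc25a35, on chromosome 11 (68968131-68974365, plus strand), overlaps Rangrf on the opposite strand at its 3′ end, and Car14, on chromosome 3 (95897768-95904691, minus strand), overlaps Aph1a in the same way. Whether the counting used strand is not given in the sources used here, so part of the Slc25a35 and Car14 reads could belong to these partners. The partners themselves had 44.4 (Rangrf) and 65.3 (Aph1a) CPM in granulosa-like cells at day 7, and 46.6 and 74.5 at day 14, intervals that overlapped between the ages.

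RefSeq promoter windows (GRCm38.p6) were at hand for 6 of the 8 genes, 7 windows in all because Susd4 has more than 1. In the 250 bases before the start, the letters CAGACA, a SMAD-type motif of the factors downstream of activin, were searched on both strands. They were found for 3 of the 6 genes, Cbs, Otor and Cnmd, and in 17.1% of all 32851 windows of that length. These 3 windows are printed because they share that match while the genes differ in when and in how many cells they were found. Capitals mark the SMAD-type match (TGTCTG where it lies on the other strand) and, in Otor, a TATA box. Bases inside the annotated gene are left out, which shortens the Cbs window to 217 bases.
Cbs, chr17:31637239-31637455, minus strand: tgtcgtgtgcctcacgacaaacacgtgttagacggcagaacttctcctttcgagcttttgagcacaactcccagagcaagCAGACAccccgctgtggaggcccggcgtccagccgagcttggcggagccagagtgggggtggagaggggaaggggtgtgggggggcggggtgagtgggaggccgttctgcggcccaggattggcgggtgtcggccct
Otor, chr2:143078143-143078392, plus strand: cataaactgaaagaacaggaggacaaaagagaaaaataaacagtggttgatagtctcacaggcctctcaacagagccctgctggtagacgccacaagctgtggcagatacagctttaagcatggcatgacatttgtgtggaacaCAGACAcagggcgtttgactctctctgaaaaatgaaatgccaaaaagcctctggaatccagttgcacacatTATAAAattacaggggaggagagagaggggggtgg
Cnmd, chr14:79662184-79662433, minus strand: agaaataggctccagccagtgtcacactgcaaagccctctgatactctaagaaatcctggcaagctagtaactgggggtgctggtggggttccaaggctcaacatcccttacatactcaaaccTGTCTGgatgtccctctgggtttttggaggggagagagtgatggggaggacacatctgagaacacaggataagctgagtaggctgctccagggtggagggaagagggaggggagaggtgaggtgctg
Counted from the RefSeq start, the match begins 170 bases before it in Cbs, 106 in Otor and 127 in Cnmd. For these 3 genes the RefSeq start is not the gene boundary given above, so distances from that boundary differ. The TATA box letters TATAAA begin 35 bases before the RefSeq start of Otor and occur in 12.4% of all windows. A short CRE motif (TGACG, in 17.8% of all windows) was found in a Susd4 window, and none of the motifs searched was found for Ass1 or Car14. The NR5A core AAGGTCA (4.08% of all windows; the longer CAAGGTCA contains it), the GATA motif AGATAA (9.99%), the forkhead motif GTAAACA (3.17%), the STAT motif TTCNNNGAA (7.02%) and the oestrogen response element (0.0639%) were in none of the 7 windows. A match is a run of letters and no evidence of binding.

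In granulosa-like cells the 8 genes fell into 2 patterns by age. Cbs, Ass1, Slc25a35, Susd4 and Otor were low at embryonic day 16.5 and at day 7 and appeared at day 14. Socs2, Cnmd and Car14 were already above their embryonic level at day 7 and higher again at day 14. 

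Among the enzymes, Cbs was counted at 2, 3 and 117 UMIs at embryonic day 16.5 and at days 7 and 14, or 1.10, 1.53 and 70.9 CPM (95% interval at day 14, 58.6 to 84.9). The day 14 level was 46.3 times the day 7 level, with a wide interval of 15.5 to 228 because only 3 UMIs stand behind the lower value. The UMIs were spread over 46 of the 95 cells, the highest holding 10. In the theca-like cells, which had the greater median depth of 17383 UMIs, 4 of 42 cells held a Cbs UMI.

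Ass1 was counted at 20, 11 and 143 UMIs, or 11.0, 5.61 and 86.6 CPM (73.0 to 102 at day 14). Alone among the 5 with enough UMIs to compare, it had a lower value at day 7 than at embryonic day 16.5, and the intervals of those ages overlapped. From day 7 to day 14 the level was 15.4 times higher (8.37 to 31.6), and 42 of 95 cells held a UMI against 8 of 88 cells at day 7. Slc25a35 had 2, 3 and 67 UMIs, or 1.10, 1.53 and 40.6 CPM, 26.5 times higher at day 14 than at day 7 (8.69 to 132) and found in 35 cells.

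Car14 was found at day 7 in more cells than Cbs, Ass1 or Slc25a35. It had 1, 28 and 140 UMIs, or 0.551, 14.3 and 84.8 CPM, 5.94 times higher at day 14 than at day 7 (3.94 to 9.26). Cells with a Car14 UMI numbered 1, 18 and 43 at the 3 ages.

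Of the membrane and secreted proteins, Susd4 had 3, 9 and 81 UMIs, or 1.65, 4.59 and 49.1 CPM, 10.7 times higher at day 14 than at day 7 (5.36 to 24.2), in 39 cells. Otor had 1, 1 and 67 UMIs, or 0.551, 0.510 and 40.6 CPM, but these came from only 17 cells. In cluster 19, 1 cell held 34 of the 67 UMIs, and another granulosa-like cell held 12. Without the highest cell the Otor level was 20.5 CPM (14.1 to 28.8), still 40.2 times the day 7 level (6.73 to 1634), and its log2 ratio of (CPM + 10) was 1.54 against 2.27 with it. For the other 7 genes the highest cell held at most 15 UMIs, except in Cnmd and Socs2 with 21 and 55 of much larger totals.

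Cnmd had 1, 177 and 427 UMIs, or 0.551, 90.3 and 259 CPM, 2.87 times higher at day 14 than at day 7 (2.40 to 3.43). It was found in 1 of 87, 56 of 88 and 76 of 95 cells. Between embryonic day 16.5 and day 7 the level was 164 times higher (29.0 to 6509), against 1 embryonic UMI. Socs2, found in more granulosa-like cells than any other of the 8, had 85, 974 and 1245 UMIs, or 46.8, 497 and 754 CPM. It was 10.6 times higher at day 7 than at embryonic day 16.5 (8.49 to 13.4) and 1.52 times higher at day 14 than at day 7 (1.39 to 1.65), with a UMI in 87 of 88 and 94 of 95 cells at the later ages.

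**Figure D1:**
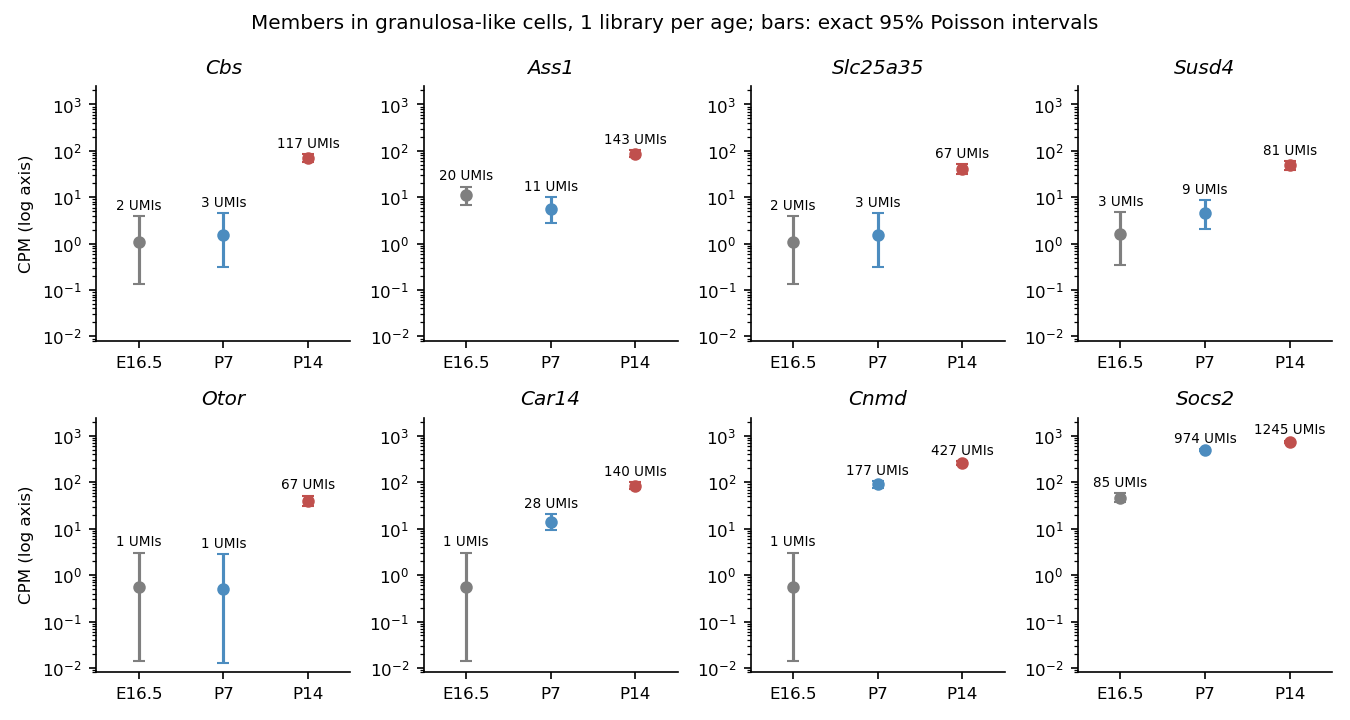
Level of each gene in granulosa-like cells (y axis, CPM on a log axis) at embryonic day 16.5 (E16.5), postnatal day 7 (P7) and postnatal day 14 (P14), 1 library per age; points are summed levels, bars exact 95% Poisson intervals, and the numbers above are UMIs. Cbs, Ass1, Slc25a35, Susd4 and Otor are at 11.0 or below until P14, whereas Car14, Cnmd and Socs2 are above their embryonic level at P7, Socs2 changing least from P7 to P14.

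Counting as higher a gene whose log2 ratio of (CPM + 10) was at least 1, among genes with 10 or more UMIs in both sums together, 7 of the 8 were higher at day 14 than at day 7, the exception being Socs2 at 0.59. Of all 12674 genes so compared, 1.29% were higher. All 8 were higher at day 14 than at embryonic day 16.5, where 2.78% of all genes were. The choice of the 8 used both contrasts, so nothing is read from these counts. Of the 5 with enough UMIs to compare day 7 with embryonic day 16.5, Car14, Cnmd and Socs2 were higher, against 3.26% of all genes. Since cluster 19 was almost absent at day 7, the ages were also compared within cluster 12, in 18 cells at day 14 and 85 at day 7. There Cbs, Ass1, Susd4, Slc25a35 and Cnmd were higher, 5 of 7 compared (1.29% of all genes), at 24.4 (Cbs), 7.54 (Ass1), 9.76 (Susd4), 22 (Slc25a35) and 2.66 times (Cnmd) the day 7 level. Car14 was 2.27 times (1.08 to 4.52) and Socs2 1.07 times (0.916 to 1.25) as high, below the threshold. At day 14, cluster 19 exceeded cluster 12 in Ass1 (2.23 times), Otor (3.73) and Car14 (2.94), 3 of the 8, where 2.03% of all genes were higher, while Susd4 (1.05) and Cnmd (1.11) were nearly level. These cluster comparisons use cells whose values chose the genes, so nothing is read from their counts.

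The 9 granulosa-like cells that also held endothelium markers were deep (median 33321 UMIs) and had lower levels of all 8 genes than the other 86 cells. Cbs was at 24.1 CPM in them against 80.8 in the rest, Ass1 at 20.7 against 101, and Cnmd at 128 against 287. For Susd4, at 34.5 against 52.2, the intervals overlapped. Without these cells the count of genes higher at day 14 was again 7 of 8.

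The genes were then looked for in the other classes. After thinning each cell to 5000 UMIs, the share of day 14 granulosa-like cells with a UMI was 27.4% for Cbs, 22.1% for Ass1, 17.9% for Slc25a35, 12.6% for Susd4, 9.47% for Otor, 23.2% for Car14, 54.7% for Cnmd and 91.6% for Socs2. In stroma-like cells of the same library (median depth 8546 UMIs before thinning) it was 0% for Otor, 0.568% to 4.55% for Cbs, Ass1, Slc25a35, Susd4, Car14 and Cnmd, and 58.5% for Socs2. At day 14, 7 of the 8 were higher in granulosa-like cells than in all other cells of the library together, a rule met by 3.31% of all genes. The high day 14 granulosa level is what the genes were chosen for, so nothing is read from this count. The exception was Ass1, at 1.44 times (1.18 to 1.74). Granulosa-like cells, with 18.2% of the library's UMIs, held 93.1% of the Otor UMIs (67 of 72), 89.1% of Cnmd, 87.0% of Car14, 73.6% of Cbs, 65.3% of Susd4, 61.1% of Socs2, 40.1% of Slc25a35 and 24.3% of Ass1. The values of Ass1 and Slc25a35 go against a purely granulosa description of the set.

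Theca cells form the steroid-making layer around the follicle and supply androgen to the granulosa cells. Ass1 had its highest level of any class there: 322 UMIs in 40 of the 42 theca-like cells, or 357 CPM (319 to 398), 4.12 times the granulosa-like level (3.37 to 5.05). Slc25a35 had 67 UMIs in 26 theca-like cells, or 74.3 CPM (57.5 to 94.3), 1.83 times the granulosa-like level (1.28 to 2.61). Ass1 alone of the 8 passed the 2-fold rule upward in theca-like over granulosa-like cells, as did 4.73% of all genes. The other 6 were lower in theca-like cells, as were 6.7% of all genes, with 0 Susd4 UMIs among 902334 (which allows up to 3.32 CPM), 1 UMI each of Otor and Car14, 3 of Cnmd, 4 of Cbs and 19 of Socs2. The granulosa-like side of these counts chose the genes, so they too are given as a description. No cells of the earlier ages fell in the theca-like class. Cluster 15, left unnamed, had the theca marker Hhip among its leading genes, with 38 cells at day 7 and 101 at day 14. The absence at earlier ages therefore holds for the named class only.

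The level in granulosa-like cells at day 14 was also expressed as a percentage of the theca-like level, for the 2 genes and for the theca markers. Defining theca genes were at 1.03% (Cyp17a1, the androgen-making lyase), 1.09% (Cyp11a1, side-chain cleavage) and 0.369% (Star, cholesterol transport), and Insl3 was at 0. Ass1 was at 24.3% (19.8 to 29.6) and Slc25a35 at 54.7% (38.4 to 77.9), above each theca marker with more than 1 theca-like UMI. The nearest was Hsd3b1, a steroid dehydrogenase, at 20.1% (18.9 to 21.4), an interval that overlaps that of Ass1, and the next was Lhcgr at 7.55%. The 10 theca markers together had 1093 CPM in granulosa-like cells at day 14 against 526 at day 7 and 14827 in theca-like cells, and 1389 of their 1804 UMIs were Hsd3b1.

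**Figure D2:**
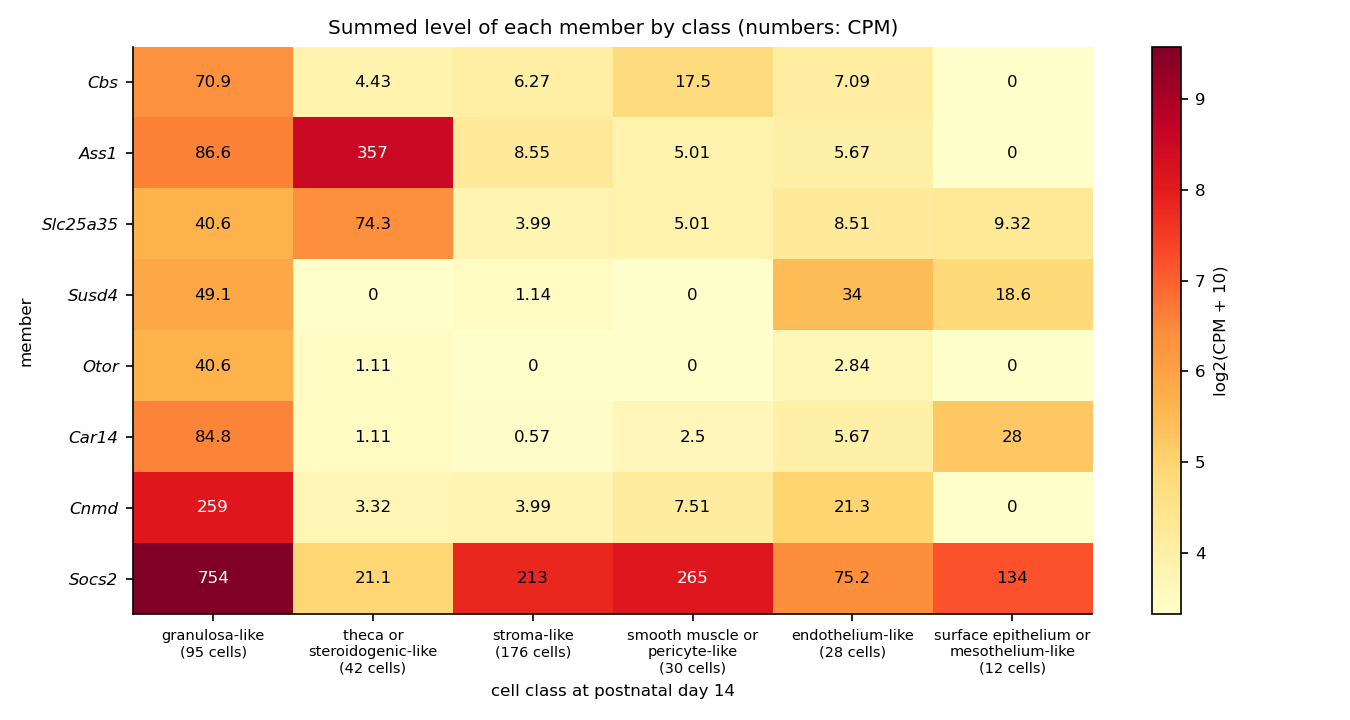
Levels of the 8 genes (rows) in 6 cell classes (columns, with their number of cells) of the postnatal day 14 library; numbers are CPM and the colour is log2 of (CPM + 10). Granulosa-like cells hold the highest value in 6 rows, and theca-like cells in the rows of Ass1 (357) and Slc25a35 (74.3).

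Stroma-like cells, the fibroblast-like cells between follicles, formed the largest class present at both postnatal ages, with 152 cells at day 7 and 176 at day 14. Ass1 changed there in the opposite direction to granulosa-like cells. It had 112 UMIs in 67 cells at day 7 and 15 UMIs in 11 cells at day 14, or 69.5 (57.2 to 83.6) and 8.55 (4.79 to 14.1) CPM, a ratio of 0.123 (0.0666 to 0.212). Cluster 14 held 142 of the day 7 stroma-like cells and cluster 17 held 172 of the day 14 cells, so age and cluster cannot be told apart here. Cluster 17 at day 7 had 0 Ass1 UMIs in 10 cells and cluster 14 at day 14 had 0 in 4 cells.

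Ass1 was also lower at day 14 in the 3 unnamed clusters with at least 10 cells at each postnatal age. In cluster 10, whose leading genes are of dividing cells (Pimreg, Aurkb), it was at 104 CPM at day 7 and 21.9 at day 14, a ratio of 0.210 (0.128 to 0.330). In cluster 13, led by Nell2 and Clec3b, it was at 46.9 and 8.05, and in cluster 15, led by Dleu7 and Hhip, at 126 and 44.2, a ratio of 0.352 (0.249 to 0.496). Over all cells of a library Ass1 was at 49.9 CPM at day 7 and 65.0 at day 14. Of its 588 UMIs at day 14, 322 lay in theca-like cells, a class to which no day 7 cells were assigned, and 143 in granulosa-like cells. At day 7, granulosa-like cells held 2.52% of its UMIs (11 of 436).

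**Figure D3:**
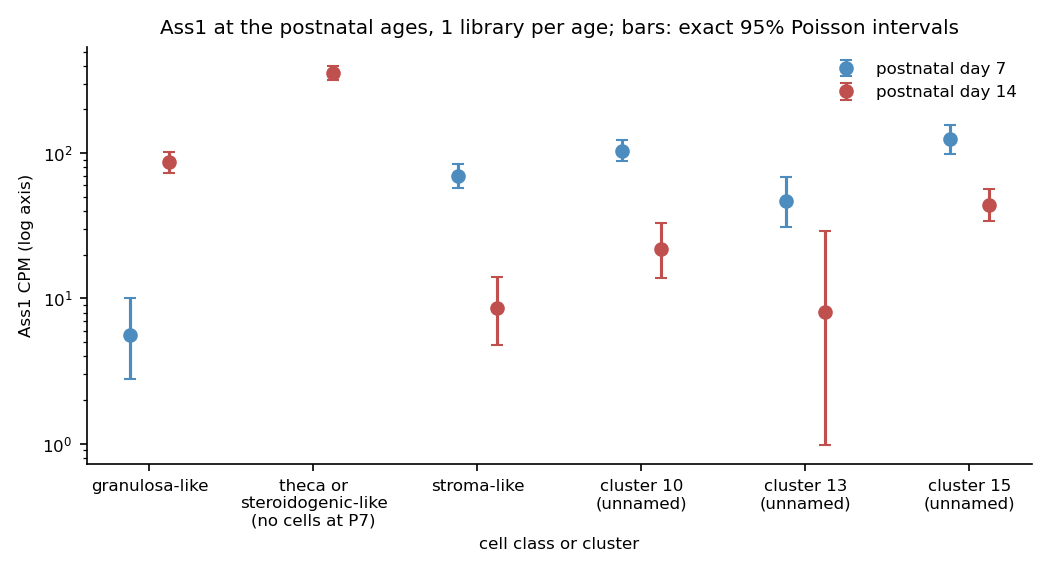
Ass1 level (y axis, CPM on a log axis) at postnatal days 7 and 14 in 3 cell classes and 3 unnamed clusters, 1 library per age; bars are exact 95% Poisson intervals. Granulosa-like cells go from 5.61 to 86.6 and stroma-like cells from 69.5 to 8.55. The named theca-like class, at 357, has cells at day 14 alone.

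Of the 3 genes with enough stroma-like UMIs to compare, none passed the 2-fold rule upward (0.694% of all genes did) and Ass1 alone passed it downward (0.982% did). Socs2 came close to the threshold, with 177 UMIs at day 7 and 373 at day 14, or 110 and 213 CPM, 1.94 times higher (1.61 to 2.33). Cbs had 2 and 11 stroma-like UMIs, or 1.24 and 6.27 CPM. Fewer than 10 stroma-like UMIs were counted over both ages for each of Slc25a35, Susd4, Otor, Car14 and Cnmd.

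Socs2 was the most broadly found of the 8. At day 14 it had 265 CPM in smooth muscle-like cells (217 to 321) and 213 in stroma-like cells (192 to 235), values whose intervals overlap, against 754 in granulosa-like and 21.1 in theca-like cells. Susd4 had its highest value in the 15 surface epithelium-like cells at day 7, 52.2 CPM (30.4 to 83.5), and the interval of the day 14 granulosa-like level overlaps it. It was also found in 12 of 28 endothelium-like cells at day 14 (34.0 CPM) and in 9 of 12 germ-like cells at day 7 (21.1). The germ-like cells were far deeper (median 81812.5 UMIs), and after thinning 1 of the 12 held a Susd4 UMI. Of the 24 endothelium-like Susd4 UMIs at day 14, 7 lay in 1 cell that also held 310 granulosa marker UMIs, and the level without it was 26.3 (15.3 to 42.0).

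The same cell accounted for most of what Cnmd showed in endothelium-like cells, 12 of 15 UMIs. Without it Cnmd was at 4.63 CPM there, and Otor and Car14 were at 0. In germ-like cells at day 7 Cnmd had 29 UMIs in 9 of 12 cells, or 30.6 CPM, against 90.3 in granulosa-like cells of the same library. After thinning, 1 of those 12 deep cells held a Cnmd UMI. Car14 had 9 UMIs in 3 of 12 surface epithelium-like cells at day 14, 28.0 CPM (12.8 to 53.1), 6 of them in 1 cell. Cbs, in contrast, was low in every other class at day 14, the next value being 17.5 CPM (7.05 to 36.1) from 7 UMIs in smooth muscle-like cells.

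Inhba itself had 4, 37 and 489 UMIs in granulosa-like cells at embryonic day 16.5 and at days 7 and 14, or 2.20, 18.9 and 296 CPM. The rise was unevenly spread. At day 7, 23 of 88 cells held 1 to 4 UMIs each. At day 14, 18 of 95 cells held any, and 10 of them held 13 to 74 UMIs. Median depth was lower at day 14 (12623 against 17833 UMIs). After thinning to equal depth the shares were alike, 14.8% at day 7 (13 cells) and 14.7% at day 14 (14 cells). Before thinning, the 8 genes were more widely found than Inhba at day 14, apart from Otor with 17 cells.

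In the 95 thinned cells at day 14, 14 held an Inhba UMI (11 in cluster 19 and 3 in cluster 12) and 81 did not, with a median depth before thinning of 14134.5 and 12369 UMIs. The 8 genes together were 1.80 times as high in the cells with Inhba (1.505 to 2.14). The median cell with Inhba held 13 UMIs of the 8 genes (range 1 to 20) and the median cell without it 7 (range 0 to 24), so the groups overlapped widely. At day 7 the same split, of 13 against 75 cells, gave a ratio of 1.20 (0.869 to 1.62), an interval that includes 1.

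The genes differed in how they went with Inhba. Car14 was 3.78 times as high in cells with it (1.93 to 7.24), Ass1 3.47 times (1.82 to 6.43), Cbs 2.52 times (1.07 to 5.49) and Socs2 1.87 times (1.48 to 2.35). Each of Car14, Ass1 and Cbs was found in 7 of the 14 cells with Inhba, and in 15, 14 and 19 of the 81 cells without it. Before thinning, 1 cell with 13 Inhba UMIs was the highest for both Ass1 (12 UMIs) and Car14 (15), so it counts in both ratios. The highest Cbs and Socs2 cells held 33 and 74 Inhba UMIs, that of Susd4 held 1, and those of Otor, Slc25a35 and Cnmd held 0. The intervals take UMIs of the same cell as independent. Cnmd was at 0.765 times (0.424 to 1.29), Susd4 at 1.05 (0.113 to 4.82) and Slc25a35 at 0.579 (0.0656 to 2.38), from 2 UMIs in the cells with Inhba for each of the last pair. Otor, at 3.16 times, rested on 6 and 11 UMIs, and its interval of 0.958 to 9.31 includes 1. Without thinning, in 18 against 77 cells, Ass1 was 4.97 times (3.53 to 7.01) and Slc25a35 1.56 times (0.858 to 2.73) as high. Cnmd was then at 1.27 times (1.002 to 1.59), so Slc25a35 and Cnmd both lay on the other side of 1 from their thinned values, Cnmd with its interval just above 1.

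**Figure D4:**
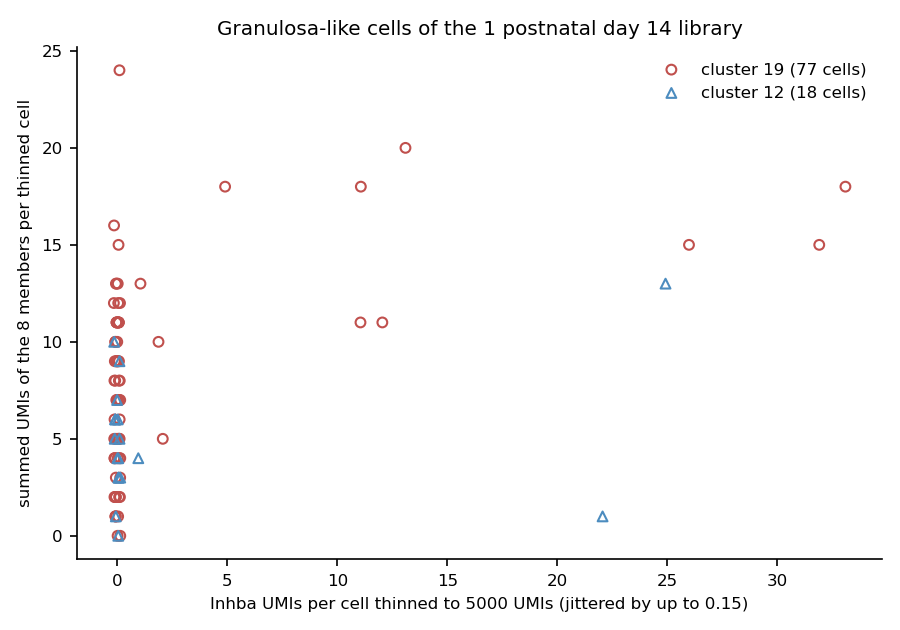
Each point is 1 granulosa-like cell of the postnatal day 14 library thinned to 5000 UMIs: Inhba UMIs (x axis) against the summed UMIs of the 8 genes (y axis), by cluster. Cells with an Inhba UMI reach 33 Inhba UMIs and hold 1 to 20 UMIs of the 8 genes, within the range of 0 to 24 among the cells without.

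By the 2-fold rule 4 of the 8 genes, Cbs, Ass1, Otor and Car14, were higher in cells with Inhba, where 7.38% of all 6270 genes compared were higher and 13.4% lower. None of the 8 was lower. Otor passed on 6 and 11 UMIs, with an interval that includes 1. The split uses the cells whose values chose the genes, so nothing is read from these counts. Other genes moved with the same split. Of the 19 inhibin, activin and growing follicle genes, 17 could be compared: 9 were higher, among them Inha, Inhbb, Fst, Gja1 and Ihh, and 3 (Amh, Kctd14 and Slc18a2) were lower. The 10 theca markers summed to 3643 CPM in the cells with Inhba and 825 in those without, with Cyp11a1, Hsd3b1, Lhcgr and Fdx1 higher and Insl3 at 0 in both. Endothelium markers were lower in the cells with Inhba (42.9 against 202). The part of these differences in the values of the 8 genes was not tested.

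**Figure D5:**
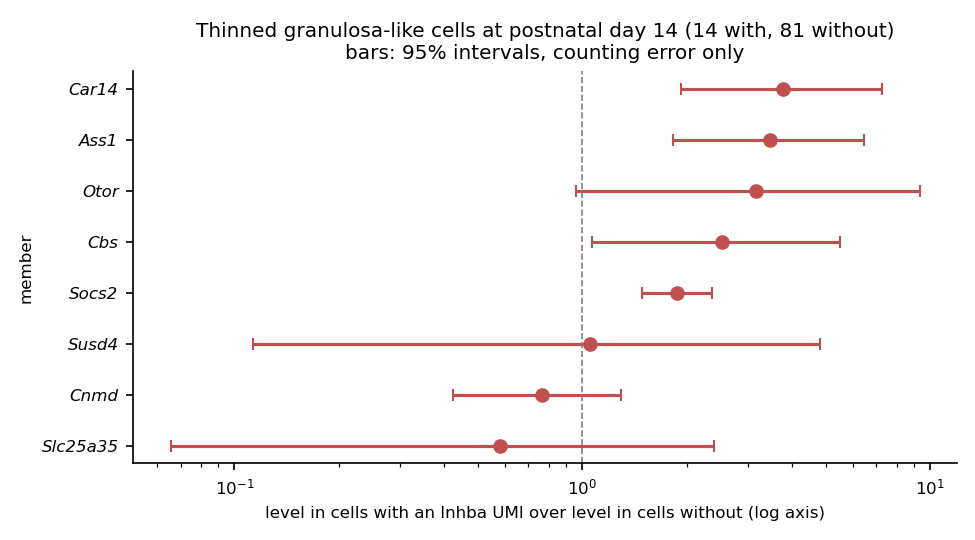
Ratio of each gene's level in thinned day 14 granulosa-like cells with an Inhba UMI (14 cells) to that in cells without (81 cells), on a log axis; bars are 95% intervals covering counting error only and the dashed line is 1. Car14, Ass1, Cbs and Socs2 lie above 1 with their intervals, and those of Otor, Susd4, Cnmd and Slc25a35 include 1.

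Among the thinned cells at day 14, some of the 8 genes were found together more often than the product of their shares. Cbs and Susd4 shared 9 cells against 3.28 from that product, Ass1 and Car14 shared 12 against 4.86, Cbs and Ass1 12 against 5.75, and Cbs and Car14 12 against 6.02. Cnmd and Socs2 were near the product with most of the others, as 49 cells with both against 47.6. Otor and Slc25a35 shared 1 cell against 1.61. No cell held all 8 genes, 1 held 7, and 52 of 95 held 2 or fewer, at a depth where 1 UMI equals 200 CPM.

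Across the 26 sums of at least 10 cells (class by library), the genes most like each of the 8 were found by Pearson's r of log2(CPM + 10), as a description over sums that share libraries and depth. The sums include the day 14 granulosa-like cells, whose values chose the genes. Otor, for example, was at 40.6 CPM there and at 2.84 in the next sum. A high r can thus reflect a shared peak in that 1 sum, and nothing is read from the ranks. Otor was most like Cyp19a1 (aromatase, r = 0.925), Nap1l5 and Slc38a3. Car14 was most like Nap1l5 (0.872) and Ihh (0.864), and Cbs most like Otor (0.850) and Inhba (0.828); Cbs was in turn the gene most like Inhba. Slc25a35 was instead most like Mgarp (0.899), Cyp11a1 (0.869), Lhcgr (0.862) and Cyp17a1 (0.842), all leading genes of the theca-like cluster. Cnmd was most like Apoa1 (0.917), Ccdc68 and Hsd17b1, Socs2 most like Mras (0.919), Susd4 most like Celsr1 (0.899), and Ass1 most like Plin1 (0.777), the lowest leading value of the 8. Over the 95 thinned cells, the summed 8 genes ranked most with Inha (Spearman's rho = 0.589), Hsd17b1 (0.549) and Gja1 (0.505), and least with Crip2 (-0.458). Most of that sum was Socs2, with 101 of 172 UMIs in the cells with Inhba and 312 of 554 in those without. The sum without Socs2 ranked most with Inha (0.551), Ctsl (0.465) and Gja1 (0.463), and least with Gatm (-0.389).

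The families and pathways of the 8 genes were compared between day 7 and day 14 in granulosa-like cells. Over all 12674 genes the median log2 ratio was -0.02 and 1.29% were higher. The lists were not tested against each other. Of 21 transsulfuration and methionine cycle genes compared, 1 was higher and 0 lower, with a median of -0.28. The gene that was higher, Gclc (glutathione synthesis), went from 22.4 to 60.6 CPM, while Cth, the enzyme after Cbs, had 5 and 7 UMIs and Mat2a 200 and 164 CPM. Of 15 arginine and urea cycle genes compared, 0 were higher and 1 lower (median -0.15): Gatm, the first enzyme of creatine synthesis, went from 653 to 222 CPM. Asl, the enzyme after Ass1, was at 32.6 and 49.1, 1.503 times (1.07 to 2.12).

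None of 4 MIA and BRICHOS family genes, 34 mitochondrial carriers or 6 carbonic anhydrase and bicarbonate transport genes passed the rule in either direction, with medians of -0.17, -0.05 and -0.01. Of 20 SOCS, growth hormone and prolactin pathway genes, 0 were higher and 1 lower, Igf1, from 114 to 30.9 CPM; Prlr, the prolactin receptor, was at 10.2 and 23.0, and Socs3 at 97.4 and 89.6.

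Of 19 inhibin, activin and growing follicle genes, 7 were higher (median 0.51): Inhba, Inha, Cyp19a1, Fshr, Gja1, Ihh and Nap1l5. Of these, Inha, Cyp19a1, Fshr and Ihh are also among the markers that named the granulosa-like class. Inha, the inhibin α subunit, was at 1372 and 4288 CPM, and Fshr, the follicle-stimulating hormone receptor, had 1 and 26 UMIs. Amh (480 and 461) and Inhbb (228 and 231) were nearly level. Igf1, also on this list, was the 1 gene lower. None of 20 cell cycle genes passed the rule, though their median was -0.62 and their sum was 1475 CPM at day 7 and 915 at day 14. None of 15 dissociation stress genes passed it either (median -0.22).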

How the data were processed

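UMI counts per gene and cell barcode from 3 libraries, 1 per age, were used as the authors deposited them. Per the submitters' processing notes they were made with Cell Ranger 2.1.1 on GRCm38, and per the labels' protocols all libraries were sequenced on 1 lane. No correction for free RNA was made here. A barcode was kept as a cell if it had 200 or more genes and no more than 20% of its UMIs from mitochondria, which left 1548 of 1554. Cells were clustered by the Leiden method at resolution 1, on 30 principal components and 15 neighbours, from log counts scaled to 10000 per cell over 2000 variable genes that left out the 8 genes, Inhba and the listed genes (scanpy 1.11.5, Python 3.11.15). A cluster was named when at least 3 markers of a class were 2-fold higher in it and at least 1 stood among its 10 leading genes. Of 21 clusters, 16 were named and 5 were not; names rebuilt this way may differ from the study's. Scrublet called 7 doublets, so it removed few cells; they were kept, and their removal is an alternative.

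UMIs were summed per class and library and scaled to CPM (per 1000000 UMIs), with exact Poisson 95% intervals for levels and exact conditional binomial intervals for ratios. Total depth over all barcodes, before filtering, was 8743797 to 9065595 UMIs per library. No test was made, since each age has 1 library, and summed-count functions were tested on simulated data. Scaling factors for the alternatives came from edgeR 4.0.16 (TMM) and DESeq2 1.42.0 (median of ratios) on these raw counts, without their tests. More than 1 row was found for 108 symbols, none of them among the 8 genes. Thinning drew each cell to 5000 UMIs, and no kept cell was shallower. Gene positions come from GENCODE M21 on GRCm38, in which 53274 of 53465 identifiers were found ignoring version.

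The 8 genes, the markers and the gene lists were chosen with earlier results of these data known, so no list is independent evidence. The text names the 8 genes and Inhba; of each list the genes past 2-fold and among its 3 highest; the genes most like each of the 8 over class sums; and genes ranked with their sum in single cells. Asl, Cth, Prlr, Socs3, Fshr, Amh and Inhbb are named for their place in a pathway, chosen after their values were seen. Alternatives covered clustering, gating, doublets, cells with oocyte transcripts, pseudocount, scaling, filters and thinning. The result of the list of complement regulators is not reported here.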

Additional observations from a re-analysis of the deposited data

Results flagged for a closer look

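Ass1 went in opposite directions in the classes present at both postnatal ages. Its day 14 level was 15.4 times the day 7 level in granulosa-like cells (11 UMIs at day 7 and 143 at day 14), and 0.123 times the day 7 level in stroma-like cells (112 and 15 UMIs). With 1 library per age the difference between the classes was not tested. The stroma-like value was below 1 under every alternative run, with log2 ratios from -2.88 to -1.03, and the granulosa-like value above 1, from 1.30 to 3.73. The alternatives do not all hold the same stroma-like cells. At clustering resolution 0.5 the class had 37 cells at day 14, of which 8 were among the 176 of the main setting. The part that the change of leading cluster within each class has in either value was not tested.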

How the results depend on the processing

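No value past the 2-fold rule turned its direction under an alternative. Of the values short of it, the stroma-like log2 ratio of Cbs went from 0.53 to -0.10 at clustering resolution 0.5, and that of Cnmd from 0.32 to -0.04 with cells thinned to 5000 UMIs. At resolution 0.5 the day 14 stroma-like class was largely made of other cells, with 8 of its 37 shared with the main setting. Without thinning, the ratios of Slc25a35 and Cnmd between cells with and without Inhba moved from below 1 to above it. The counts of genes higher at day 14 in granulosa-like cells (7 of 8 against day 7 and 8 of 8 against embryonic day 16.5) were the same under each alternative run but 1: with a pseudocount of 50 CPM they were 4 and 5, when 0.174% and 0.834% of all genes were higher, and Susd4, Otor and Slc25a35 no longer passed. In stroma-like cells the count of 0 became 1 at clustering resolution 1.5 (Socs2), with a pseudocount of 1 CPM (Cbs) and with median-of-ratios scaling (Socs2). The summed ratio of cells with and without Inhba ran from 1.70 to 2.08 over its alternatives. Clustering each library on its own gave no named granulosa-like class at day 14, and so no value for the granulosa results. Leaving out cells with 10 or more endothelium marker UMIs, leaving out each gene's highest cell, and comparing within cluster 19 were chosen after seeing the data. No paired analysis was possible because each age has 1 library. Depth limits what is said of Cbs, Otor, Slc25a35 and Susd4, whose lower levels rest on 1 to 9 UMIs, and of classes of under 30 cells. The embryonic levels of Car14 and Cnmd rest on 1 UMI each.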
